A study of Mus musculus with 84 samples.

Results

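Genes of the mitochondrial respiratory chain and of the mitochondrial ribosome were followed from the virgin mammary gland through hyperplasia, mammary tumors and lung metastases of transgenic mice. A gene was a member when a clone on the array carried a single symbol starting with Nduf, Uqcr, Cox followed by a digit, Atp5, Sdh followed by a, b, c or d, or Mrpl or Mrps followed by a digit, and clones of the same gene were averaged. The rule used names only and found 93 of the 7766 genes on the 15k arrays. It found 73 of the 5725 genes on the 8.7k arrays, all of which were also on the 15k arrays. By role, the 93 genes were 22 of complex I, 2 of complex II, 2 of complex III, 4 of complex IV, 7 of complex V, 12 assembly factors of these complexes, and 27 proteins of the large and 17 of the small subunit of the mitochondrial ribosome. Roles were assigned from the symbols alone. Every member had a value on every array.

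Each RNA sample was labeled with Cy5 and hybridized to a spotted cDNA array together with a Cy3-labeled common reference, a pool of purchased ovarian RNA and RNA from FVB liver, spleen, kidney, thymus, pancreas, lung and lactating mammary gland. The 15k arrays held 5 mammary glands of nontransgenic virgin FVB females aged 9 weeks, 7 hyperplastic glands of MMTV-Wnt-1 females also aged 9 weeks, 23 primary MMTV-Wnt-1 tumors, 12 primary MMTV-Neu tumors, 10 lung metastases of MMTV-Wnt-1 tumors, 5 lung metastases of MMTV-Neu tumors and 3 samples of intestinal fat from virgin FVB females aged 12 weeks. The 8.7k arrays held 10 primary MMTV-Wnt-1 tumors and 6 MMTV-Wnt-1 tumors from p53 null (P53-/-) animals. In every transgenic group the oncogene was driven by the long terminal repeat of mouse mammary tumor virus, which is active mainly in mammary epithelium, so that the groups share that promoter but not the gene.

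The MMTV-Wnt-1 mice were on a mixed background of FVB (over 75%), SJL and C57BL/6. The MMTV-Neu mice, which carry the wild-type rat Neu cDNA, were pure FVB, and the nontransgenic mice were also FVB. Strain and transgene therefore cannot be told apart between the tumor types. The same holds for Wnt-1 hyperplastic glands and Wnt-1 tumors against virgin glands. Wnt-1 tumors were taken at 9 to 56 weeks of age, Neu tumors at 32 to 60 weeks and p53 null tumors at 9 to 14 weeks. The ages of the mice with metastases were not given in the labels. Tumor ages thus reached beyond the 9 weeks of the virgin glands, and the part of age was not tested. Of the 5 Neu metastases, 2 grew in nontransgenic hosts after Neu tumor cells were injected into the tail vein. The labels do not say whether each array of a group came from a different animal, so the p-values measure the spread between these samples. Between 9.58% and 28.8% of all genes were called in one direction in the gland and tumor comparisons, and the share of all genes called is given where each comparison is introduced.

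The respiratory chain sits in the inner mitochondrial membrane. Complexes I and II pass electrons from NADH and succinate to ubiquinone, complexes III and IV pass them on to oxygen, and complex V uses the resulting proton gradient to make ATP. The core subunits encoded by mitochondrial DNA are translated by the mitochondrial ribosome, whose proteins are, like the other subunits, nuclear gene products. Brown fat and skeletal muscle are rich in these complexes, and the virgin mammary gland is an epithelial tree inside a fat pad.

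Promoters are shown for 4 members that differed in what their promoters held or in how they behaved: Sdhb, which had the smallest adjusted p of the members between Wnt-1 tumors and virgin glands, Ndufc1 and Ndufa8 as complex I genes, and Mrps7, which separated the tumor types. Ndufa8 was chosen for its promoter after its values were seen. RefSeq promoters of the mouse build GRCm38.p6, from 250 bases before to 50 bases after each gene's start, were found for 80 of the 93 members and searched on both strands for exact matches to 3 motifs of factors known to bind nuclear genes for mitochondrial proteins. These were CGCATGCG for NRF1, CCGGAAGT for GABPA and AANATGGC for YY1. The stretches run 5′ to 3′ on the gene's strand from 70 bases before the start to 30 bases after it, with motif matches in capitals. They lie at chr4:140961201-140961300 (plus strand) for Sdhb, chr3:51408926-51409025 (minus strand) for Ndufc1, chr2:36049309-36049408 (minus strand) for Ndufa8 and chr11:115604070-115604169 (plus strand) for Mrps7.
Sdhb: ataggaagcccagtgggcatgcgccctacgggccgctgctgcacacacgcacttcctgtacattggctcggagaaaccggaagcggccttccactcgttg
Ndufc1: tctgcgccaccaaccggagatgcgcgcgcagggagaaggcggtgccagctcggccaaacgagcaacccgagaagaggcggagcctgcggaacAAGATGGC
Ndufa8: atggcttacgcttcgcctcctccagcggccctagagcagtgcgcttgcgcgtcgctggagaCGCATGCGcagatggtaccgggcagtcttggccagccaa
Mrps7: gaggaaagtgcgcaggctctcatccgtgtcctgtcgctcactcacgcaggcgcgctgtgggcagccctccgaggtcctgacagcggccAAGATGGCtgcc

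Genes were counted, and a gene with several promoters counted when any of them held the motif. The YY1 motif was found for 28 of the 80 members (35%) and for 6.96% of the 27025 genes with a promoter. The NRF1 motif was found for 10 (12.5% against 2.068%) and the GABPA motif for 9 (11.25% against 4.307%). In total, 41 members (51.25%) held at least 1 of the 3, compared with 12.43% of all genes with a promoter. The YY1 motif was found for 16 of 38 mitochondrial ribosome genes (42.11%) and for 6 of 19 complex I genes (31.58%). The GABPA motif was found for 7 of the 38 ribosomal genes and for 0 of the 19 complex I genes. Ndufc1 and Mrps7 both carried the YY1 letters near their starts, Ndufa8 carried the NRF1 letters just before its start, and the Sdhb promoter held none of these exact letters. The matches describe the sequence only.

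All values below are log2 ratios of a sample to the common reference, and differences are differences of such ratios for the same gene. They order the samples for 1 gene and do not order genes by abundance. The 15k arrays had medians over all clones between -0.14 and 0.04 and spreads (SD) between 0.67 and 2.59. On 6 of them the SD was over 1.3, namely 3 Wnt-1 metastases, 2 Wnt-1 tumors and 1 fat sample. The 8.7k arrays had medians between -0.06 and 0.02.

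Complex I genes were highest in the virgin gland, intermediate in the hyperplastic gland and lowest in tumors. Averaged over the 22 genes, the 5 virgin glands read 0.79, 0.80, 1.10, 1.09 and 0.82 on the log2 scale. The 7 hyperplastic glands ranged from 0.22 to 0.76 with a median of 0.33. The 23 Wnt-1 tumors ranged from -0.37 to 0.05 (median -0.09) and the 12 Neu tumors from -0.04 to 0.31 (median 0.06). No hyperplastic gland reached the lowest virgin gland, no Wnt-1 tumor reached the lowest hyperplastic gland, and Neu tumors overlapped both Wnt-1 tumors and hyperplastic glands. The averages of the ribosomal proteins lay closer together. The large subunit average was 0.21 ± 0.08 (SD, n = 5) in virgin glands, 0.05 ± 0.10 (n = 7) in hyperplastic glands, -0.04 ± 0.12 (n = 23) in Wnt-1 tumors and -0.00 ± 0.07 (n = 12) in Neu tumors.

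**Figure D1:**
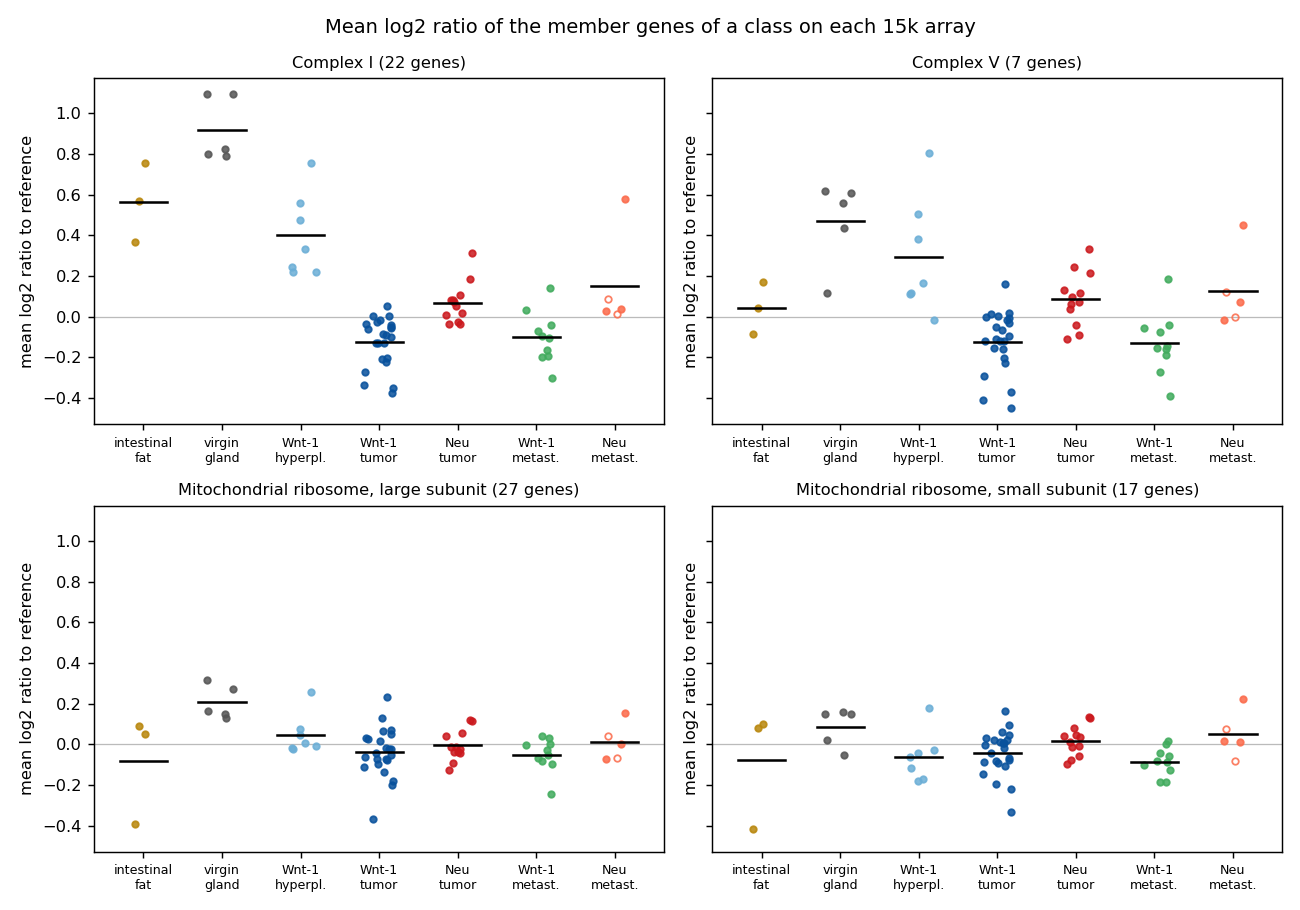
Mean log2 ratio to the common reference per 15k array, over the genes of complex I, complex V and the large and small subunits of the mitochondrial ribosome. Each point is an array, lines are group means, and hollow points are the 2 tail-vein metastases. Complex I virgin glands lie between 0.79 and 1.10 and Wnt-1 tumors between -0.37 and 0.05.

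To ask what changed before tumors formed, hyperplastic glands were compared with age-matched virgin glands. Of the 93 members, 31 were lower and 2 higher in hyperplastic glands (limma, adjusted p under 0.05), where 14.3% of all genes were lower and 9.58% higher. The median member difference was -0.22 and the median over all genes was -0.02. Complex I contributed 15 of its 22 genes to the lower set (median -0.52), and the mitochondrial ribosome 8 of 44 (median -0.13). With a permutation test after the study's methods, here with 100 regroupings pooled over genes where the study used more and a P for each gene, 15 members were lower and 1 higher at P under 0.001, beside 6.46% and 4.69% of all genes, and Cox18, Cox4i2, Mrps36 and Uqcr10 were among those no longer called. The hyperplastic gland numbered 5 stood high for several members, and without it 39 members were called, 19 of them complex I genes. The share of all genes called without that gland is not given here.

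Tumors were then compared with the glands. Between Wnt-1 tumors and virgin glands 52 of 93 members were lower and 7 higher, with 26.5% and 26% of all genes lower and higher. The median was -0.31 over the members and -0.02 over all genes. All 22 complex I genes were lower, by -0.30 to -1.68 with a median of -1.07. Of the 37 genes of complexes I to V, 33 were lower and 2 higher (median -1.01), and of the 44 ribosomal genes 14 were lower and 3 higher (median -0.20). For 32 of the 93 members, among them 17 complex I genes, every Wnt-1 tumor lay below every virgin gland, as it did for 12.5% of all genes. Under every alternative that was run, between 20 and 22 complex I genes were lower, while the permutation test no longer called Atp5g1, Cox4i2, Cox6b2, Cox7a2l and Ndufa4l2.

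Neu tumors were set against the same virgin glands, so the comparisons share those 5 arrays. Here too 52 members were lower and 7 higher, beside 28.8% and 26.8% of all genes, and the medians were -0.34 over the members and 0.01 over all genes. Of the 22 complex I genes, 21 were lower (median -0.85), and Ndufa12 alone did not pass the test (-0.22). For 26 members, including 15 complex I genes, every Neu tumor was below every virgin gland, compared with 16% of all genes. Ribosomal genes were lower for 17 of 44 and higher for 4 (median -0.17). Among the genes described below, Cox4i2, Ndufa4l2, Sdhd and Uqcr10 were not called by the permutation test in Neu tumors.

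Wnt-1 tumors were also lower than hyperplastic glands for 35 members and higher for 8, where 22.2% and 21.9% of all genes were lower and higher. Complex I gave 18 of the lower calls (median -0.56) and complex V gave 5 of its 7 genes (median -0.58). Of the ribosomal genes, 8 were lower and 6 higher (median -0.09).

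**Figure D2:**
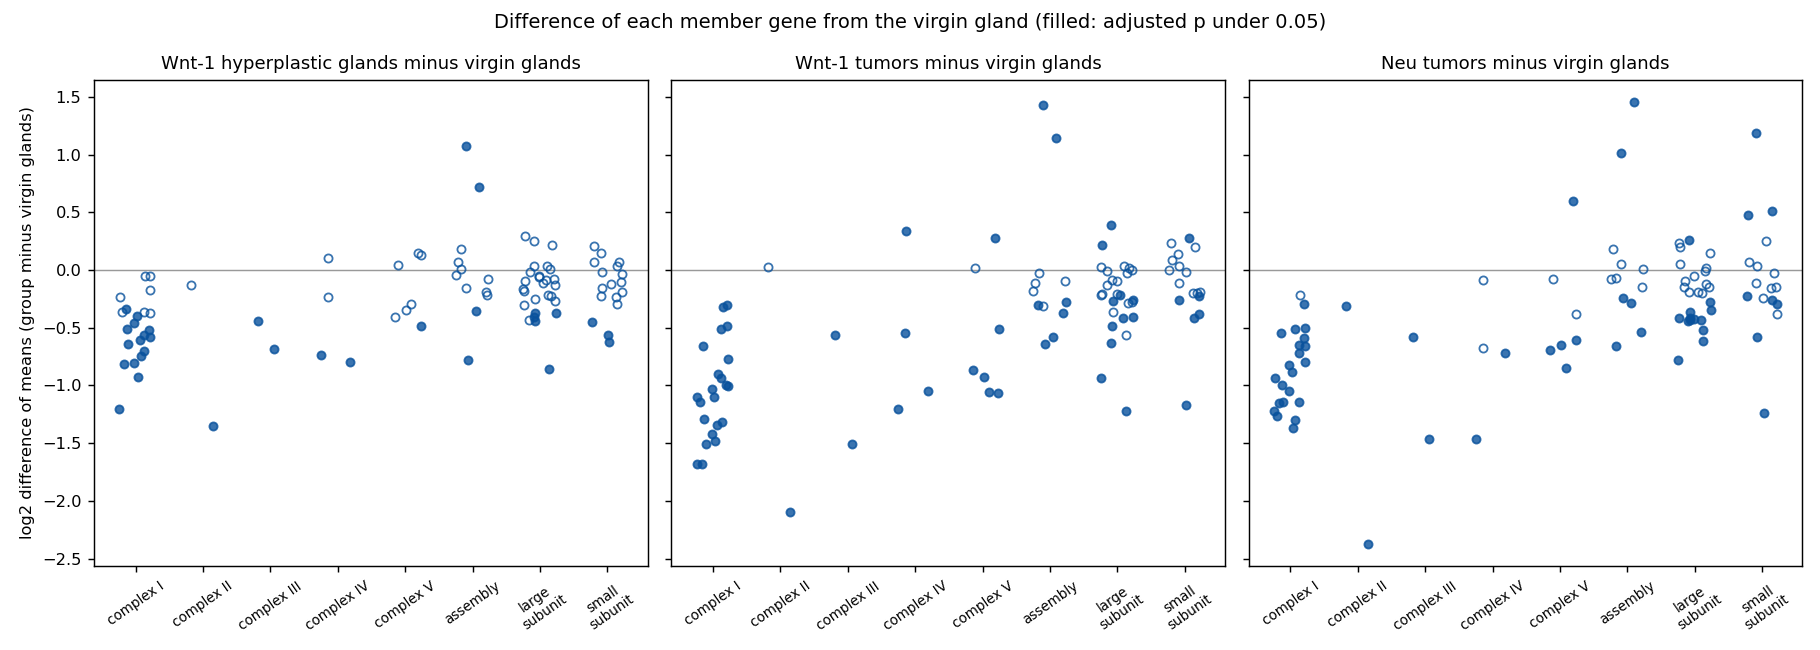
Difference in log2 ratio between hyperplastic glands, Wnt-1 tumors or Neu tumors and the 5 virgin glands, 1 point per member gene, by class. Filled points had an adjusted p under 0.05 (limma). All 22 complex I points lie below 0 in Wnt-1 tumors, between -1.68 and -0.30, and ribosomal points lie on both sides of 0 with medians of -0.13 to -0.20.

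Markers of cell types other than epithelium moved in the same samples. The mean log2 ratio of 11 measured adipocyte markers, of 12 listed, was 2.37 in virgin glands (2.22 to 2.56), 1.23 in hyperplastic glands (0.96 to 1.45), -1.71 in Wnt-1 tumors (-2.66 to -0.92) and -1.80 in Neu tumors (-2.32 to -1.25). Of these 11 markers, 10 were lower in hyperplastic than in virgin glands and 11 were lower in either tumor type. The 7 measured of 12 listed skeletal muscle markers averaged 2.81 in virgin glands (2.49 to 3.24), 2.42 in hyperplastic glands (1.93 to 2.90), -0.68 in Wnt-1 tumors (-1.81 to 0.60) and -0.66 in Neu tumors (-1.43 to 0.36). Muscle markers were lower for 2 of 7 in hyperplastic glands (Atp2a1 and Pvalb), 7 of 7 in Wnt-1 tumors and 6 of 7 in Neu tumors. The 6 proliferation markers, which were all higher in both tumor types than in virgin glands, averaged -1.95 in virgin glands, 0.01 in Wnt-1 tumors and -0.59 in Neu tumors. The 6 measured endothelial markers averaged 0.37 in virgin glands, -0.13 in hyperplastic glands, -0.66 in Wnt-1 tumors and -0.98 in Neu tumors, with 4 of 6 lower in hyperplastic glands and 6 of 6 in either tumor type. Of 6 measured lymphocyte markers, 4 were lower in either tumor type and 2 in hyperplastic glands. Ptprc was higher in Wnt-1 tumors (0.25, limma adjusted p = 0.0294), and Cd3e was not called in any of these groups. The 6 averaged -0.64 in virgin glands, -0.87 in hyperplastic glands, -1.52 in Wnt-1 tumors and -1.77 in Neu tumors. The part of any of these cells in the member differences was not tested. In whole-tissue RNA, fewer cells of a type and less RNA per cell cannot be told apart.

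**Figure D3:**
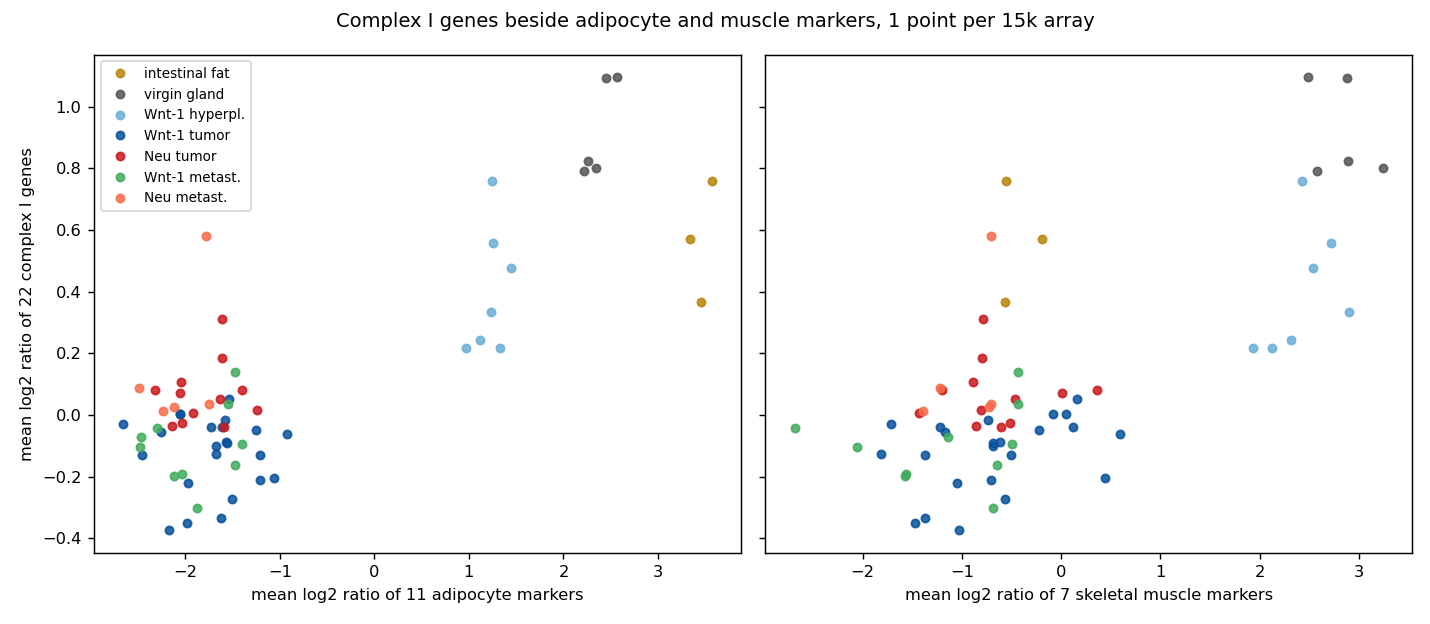
Mean log2 ratio of the 22 complex I genes on each 15k array (vertical axis) against the mean of 11 adipocyte markers and of 7 skeletal muscle markers (horizontal axes), 1 point per array and a color per group. Virgin glands lie high on all 3 measures, tumors low on all 3, and the 3 fat samples high for adipocyte markers with muscle markers between -0.57 and -0.20.

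Intestinal fat gave the same genes in an adipose tissue outside the mammary gland. Its adipocyte markers averaged 3.46 (3.34 to 3.57), above every gland, and its muscle markers averaged -0.44 (-0.57 to -0.20), below every gland. Of the muscle markers, Tnnc2, Ckm, Myh4, Mylpf and Actn3 were lower in fat than in virgin glands. Atp2a1 and Pvalb, with means of 2.46 and 0.87 in fat, were not called. The complex I average was 0.76, 0.57 and 0.37 in the 3 fat samples, above every Wnt-1 tumor and Neu tumor and below every virgin gland. Against all 35 primary tumors, 33 members were higher in fat and 11 lower, where 21.2% and 33% of all genes were higher and lower. The members' median was 0.12 and that of all genes -0.14, and 16 of 22 complex I genes were higher (median 0.54). Under the permutation test 17 members were higher and 6 lower, beside 11% and 14.9% of all genes. The fat sample numbered 44 had an SD of 2.59 over all clones. Its assembly factor average was -0.82, where the other fat samples read 0.20 and 0.17. Its large ribosomal subunit average was -0.39, where the others read 0.05 and 0.09. The difference of Mrpl3 from tumors changed direction without this sample, as described further below.

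Against virgin glands, fat was lower for 5 members and higher for 0, where 3.19% and 4.3% of all genes were lower and higher. At an unadjusted p under 0.05, limma gave 23 lower and 4 higher members, beside 15.8% and 12.4% of all genes. The permutation test called 3 lower and 0 higher, beside 1.27% and 2%. The 5 were the complex I subunits Ndufb5 (-0.80, adjusted p = 0.018) and Ndufa6 (-0.72, adjusted p = 0.0228), the complex V subunits Atp5j2 (-0.79, adjusted p = 0.0303) and Atp5g1 (-0.75, adjusted p = 0.0219), and Mrpl15 of the large ribosomal subunit (-0.71, adjusted p = 0.0419). These calls rested on single arrays. Without the virgin gland numbered 17 or 29 the count was 0, without 27 or 28 it was 1, and without the fat sample numbered 44, 45 or 46 it was 8, 3 or 2.

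Within complex I, the proton-pumping entry point for electrons from NADH, the subunits Ndufb8 and Ndufv3 differed most between virgin glands and Wnt-1 tumors. Ndufb8, a membrane arm subunit, read 0.79, 1.29, 1.90, 1.71 and 1.06 in the virgin glands. It ranged from -0.27 to 0.49 (median 0.13) in hyperplastic glands, from -0.58 to -0.13 (median -0.33) in Wnt-1 tumors and from -0.11 to 0.34 (median 0.12) in Neu tumors. All 7 hyperplastic glands and all 35 tumors were below the lowest virgin gland, and all 23 Wnt-1 tumors were also below every Neu tumor. The difference from virgin glands was -1.21 ± 0.19 (SE, adjusted p = 0.00072) for hyperplastic glands, -1.68 ± 0.11 (adjusted p = 9.02e-14) for Wnt-1 tumors, a 3.20-fold lower ratio, and -1.22 ± 0.14 (adjusted p = 6.11e-07) for Neu tumors.

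Ndufv3, a small subunit of the NADH-binding module, read 0.89, 0.96, 1.26, 1.35 and 0.89 in virgin glands. It lay between 0.04 and 0.63 (median 0.10) in hyperplastic glands, between -0.99 and -0.22 (median -0.57) in Wnt-1 tumors and between -0.23 and 0.12 (median -0.09) in Neu tumors. Each of these groups lay wholly below the virgin glands, and Wnt-1 tumors lay wholly below the hyperplastic glands. The step from hyperplastic gland to Wnt-1 tumor was -0.86 ± 0.10 (SE, adjusted p = 1.11e-08). Ndufc1, an accessory membrane arm subunit whose promoter is printed above, fell between the same groups by 0.87 ± 0.10 (adjusted p = 2.58e-08), in 23 of 23 tumors. In virgin glands Ndufc1 had read 1.13, 0.93, 1.27, 1.28 and 1.43, and in Wnt-1 tumors it ran from -0.86 to 0.12 with a median of -0.35.

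The other complex I subunits followed within a narrower range. Against virgin glands, Ndufb6 was at -1.48 in Wnt-1 and -1.37 in Neu tumors, Ndufb3 at -1.42 and -1.05, and Ndufa1, a small subunit needed for assembly of the membrane arm, at -1.34 and -1.30, all past the threshold. The smallest differences in Wnt-1 tumors belonged to Ndufc2 (-0.30) and Ndufa12 (-0.32), both called. The average of Ndufa12 hides a disagreement between its clones, which stood at -1.0 and 0.35 in Wnt-1 tumors and at -0.84 and 0.40 in Neu tumors. Ndufa4l2, a paralog of Ndufa4 that is known to be induced in hypoxia, was counted with complex I by its symbol alone. It was at -0.48 (adjusted p = 0.019) in Wnt-1 tumors and -0.50 (adjusted p = 0.0236) in Neu tumors. Both calls ended when any 1 of the virgin glands numbered 27, 28 and 29 was left out, with adjusted p between 0.0579 and 0.0676.

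Sdhb, the iron-sulfur subunit of complex II, which feeds electrons from succinate, had the largest fall of any member in both tumor types. The virgin glands read 0.99, 1.51, 1.76, 1.72 and 0.89. Hyperplastic glands lay between -0.43 and 0.49 (median 0.02), Wnt-1 tumors between -1.08 and -0.46 (median -0.69) and Neu tumors between -1.54 and -0.72 (median -0.93). Each step was without overlap, from virgin to hyperplastic glands and from hyperplastic glands to either tumor type. Sdhb fell by 1.35 ± 0.19 (SE, adjusted p = 0.000348) in hyperplasia, and the further change to Wnt-1 tumors was -0.75 ± 0.10 (adjusted p = 1.65e-07). Compared with virgin glands it was 4.28-fold lower in Wnt-1 tumors (adjusted p = 3.64e-15) and 5.19-fold lower in Neu tumors (adjusted p = 5.66e-10). Fat, at 0.80, 0.44 and 0.33, was above every tumor and below every virgin gland, with a difference from virgin glands that missed the threshold (-0.85, adjusted p = 0.0821).

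Sdhd is a membrane anchor of the same complex. It lay between -0.23 and 0.35 in virgin glands and between -0.23 and 0.52 in Wnt-1 tumors, with a difference of 0.03 ± 0.11 (SE, adjusted p = 0.872). In Neu tumors it was lower than in virgin glands by -0.31 ± 0.09 (adjusted p = 0.00552), although only 4 of 12 tumors were below every gland. The 2 members of complex II were thus both lower in Neu tumors, and 1 of them, Sdhb, in Wnt-1 tumors.

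Uqcr10, a small subunit of complex III, was lower than in virgin glands by -1.51 ± 0.10 (SE, adjusted p = 5.80e-13) in Wnt-1 tumors and by -1.46 ± 0.44 (adjusted p = 0.00911) in Neu tumors. The Neu value holds a single tumor, numbered 67, at -3.63, and the median of the 12 Neu tumors was -0.12 with a highest value of 0.24. All 12 were below the lowest virgin gland (0.74). The clones of Uqcrc2, a core protein of complex III, went opposite ways. In Wnt-1 tumors they stood at -1.44 (adjusted p = 6.10e-10) and 0.31 (adjusted p = 0.0582), and in Neu tumors at -1.47 and 0.30.

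Complex IV, cytochrome c oxidase, was represented by 4 genes, of which Cox7a2l was counted by its symbol alone. Cox6b1, the general isoform of subunit 6b, was at -1.05 ± 0.10 (SE) in Wnt-1 tumors and -0.72 in Neu tumors against virgin glands, both called. Cox6b2, the isoform known from testis, was at -0.55 (adjusted p = 0.0111) in Wnt-1 tumors and at -0.68 (adjusted p = 0.059) in Neu tumors, and without the Neu tumor numbered 67 the latter was -0.86 (adjusted p = 2.53e-05). Cox7a2l, a factor that helps complexes III and IV join into supercomplexes, was at 0.34 (adjusted p = 0.0237) in Wnt-1 tumors and at -0.09 (adjusted p = 0.564) in Neu tumors. That Wnt-1 call rested on the virgin gland numbered 13, the lowest at -0.25, without which the difference was 0.18 (adjusted p = 0.213), and it was also lost without the gland numbered 17. Cox4i2 is described with the metastases.

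Of the 7 complex V genes, 5 were lower and 1 higher in Wnt-1 tumors than in virgin glands (median -0.87), beside 26.5% and 26% of all genes. In Neu tumors 4 were lower and 1 higher (median -0.60), beside 28.8% and 26.8%. Atp5j2, a subunit of the membrane sector, was at -1.07 and -0.60. Atp5g1, one of several genes for the c subunit that forms the rotating ring, went the other way. It read between -0.87 and -0.46 in virgin glands (median -0.77), between -0.75 and -0.03 in Wnt-1 tumors (median -0.42) and between -0.40 and 0.24 in Neu tumors (median -0.10). All 12 Neu tumors were above every virgin gland, a difference of 0.60 ± 0.10 (SE, adjusted p = 4.55e-05). For Wnt-1 tumors the difference was 0.28 (adjusted p = 0.025), lost without the virgin gland numbered 17, 28 or 29 (adjusted p from 0.0666 to 0.0963). Atp5g3, another c subunit gene, was at 0.02 in Wnt-1 and -0.08 in Neu tumors and did not pass the test.

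The 2 members that were higher in hyperplastic glands than in virgin glands were both assembly factors of cytochrome oxidase. Cox11, which delivers copper to the catalytic subunit, read -0.08, 0.05, -0.21, -0.19 and -0.27 in virgin glands. It ranged from 0.08 to 0.81 (median 0.67) in hyperplastic glands, from 0.49 to 1.52 (median 1.02) in Wnt-1 tumors and from 1.04 to 1.62 (median 1.3) in Neu tumors. All 7 hyperplastic glands and all 35 tumors exceeded every virgin gland. The differences from virgin glands were 0.72 ± 0.13 (SE, adjusted p = 0.00147), 1.15 ± 0.11 (adjusted p = 2.45e-10) and 1.46 ± 0.09 (adjusted p = 2.69e-10). Fat read -0.64 and -0.55, with the sample numbered 44 at -8.12, so that no mean of fat is given for this gene. In a single fit over all groups, fat included, the hyperplastic difference had an adjusted p of 0.386.

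Cox18, which helps insert a core subunit of the oxidase into the membrane, read -0.80, -1.25, -1.20, -1.05 and -0.91 in virgin glands and -1.0, -1.39 and -1.46 in fat. It lay between -0.29 and 1.22 (median -0.18) in hyperplastic glands, between -0.70 and 1.10 (median 0.40) in Wnt-1 tumors and between -0.40 and 0.32 (median -0.04) in Neu tumors. Every virgin gland and every fat sample lay below all of these samples. Cox18 rose by 1.08 ± 0.23 (SE, adjusted p = 0.00382) in hyperplasia, 1.43 ± 0.18 (adjusted p = 1.52e-07) in Wnt-1 tumors and 1.01 ± 0.11 (adjusted p = 6.37e-07) in Neu tumors. The highest hyperplastic gland is the one numbered 5. Cox19, a copper-handling factor of the intermembrane space, moved in the opposite direction, with -0.78 in hyperplastic glands, -0.64 in Wnt-1 tumors and -0.24 in Neu tumors (adjusted p = 0.000873, 4.26e-08 and 0.0439). Over all 12 assembly factors, 5 were lower and 2 higher in Wnt-1 tumors (26.5% and 26% of all genes) and 4 lower and 2 higher in Neu tumors (28.8% and 26.8% of all genes).

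**Figure D4:**
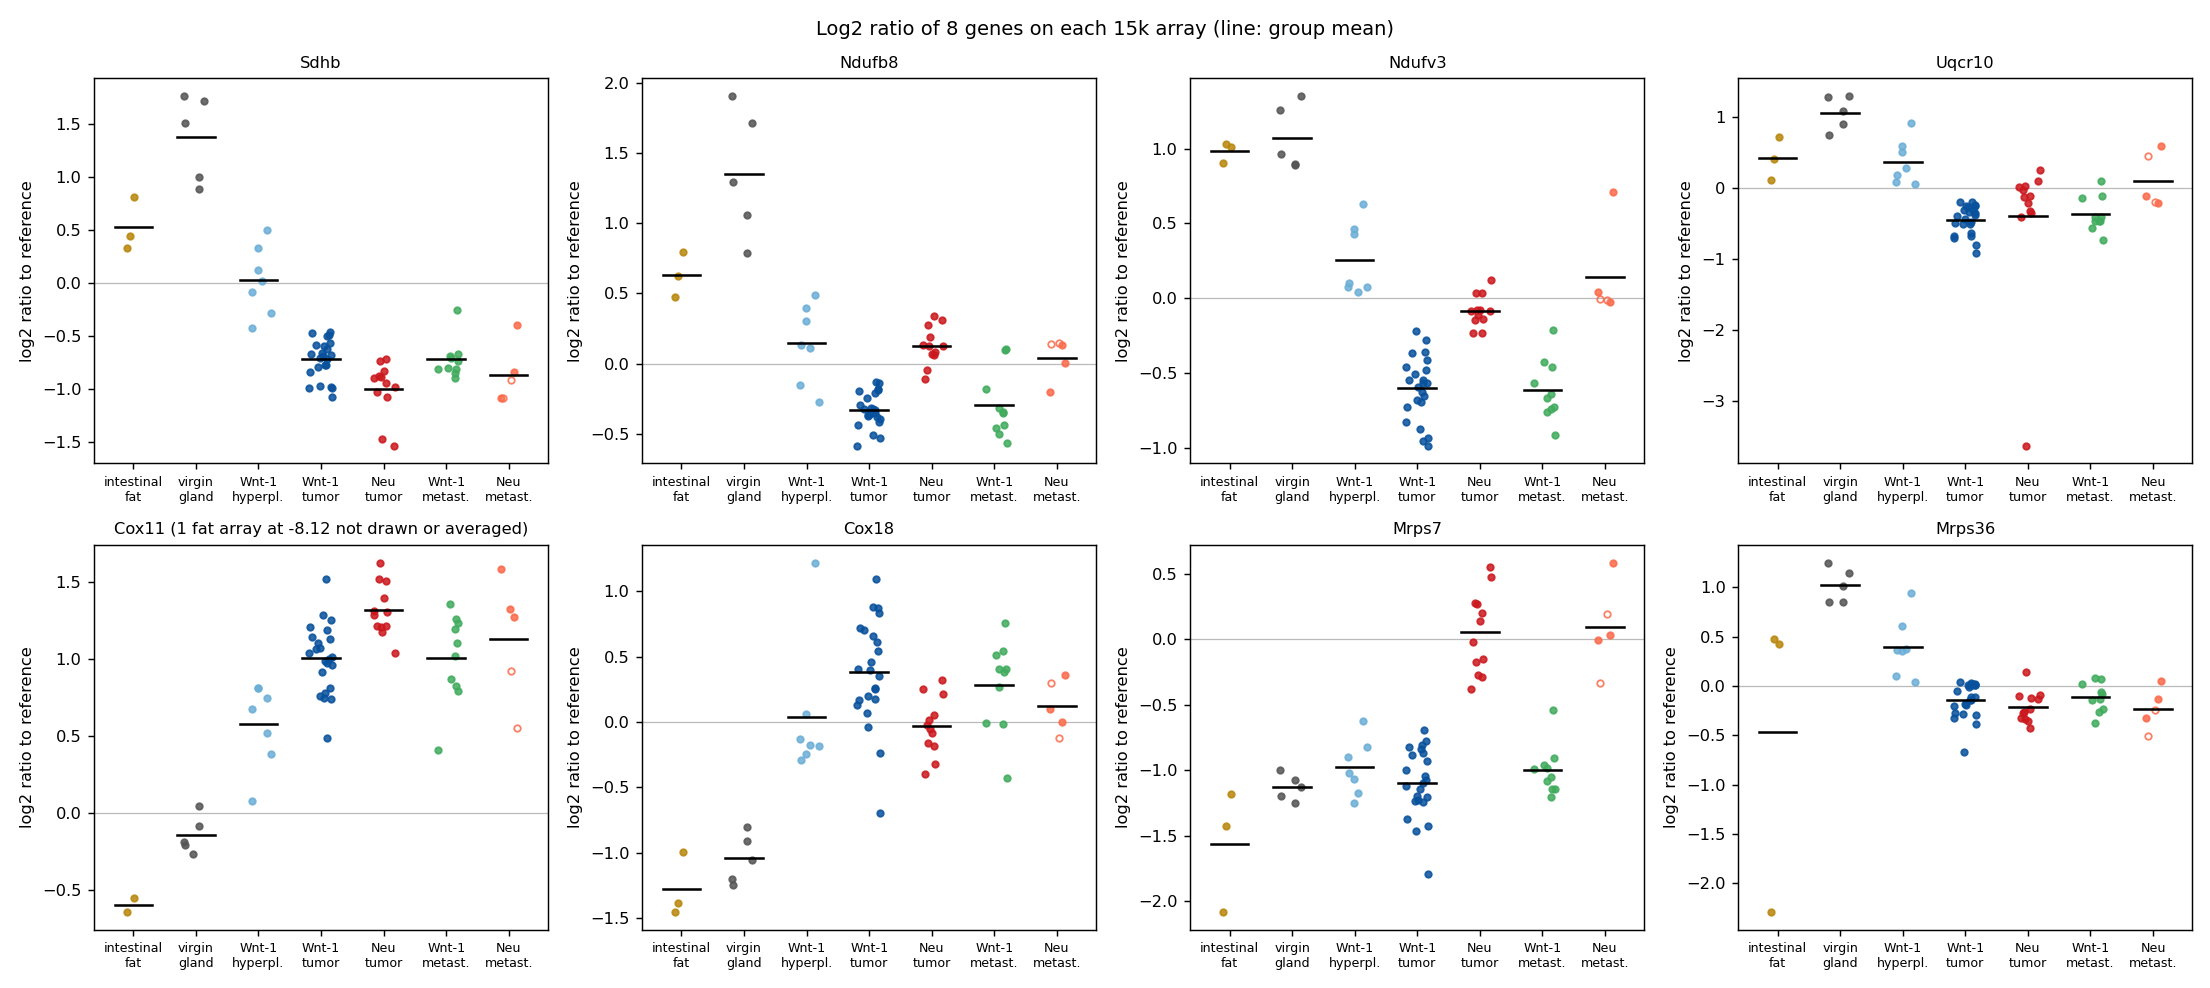
Log2 ratio to the common reference of 8 members on each 15k array, by group, with a point per array and lines for group means. Sdhb, Ndufb8, Ndufv3, Uqcr10 and Mrps36 are highest in virgin glands, Cox11 and Cox18 are lowest there and in fat, and Mrps7 is high in Neu samples. The Cox11 value of the fat sample numbered 44 (-8.12) is not drawn or averaged, and the Neu tumor numbered 67 stands at -3.63 for Uqcr10.

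Among the 44 mitochondrial ribosomal proteins, the median differences from virgin glands lay between -0.20 and -0.13 in the 3 groups. Mrps36, which is also known as a subunit of the 2-oxoglutarate dehydrogenase complex of the citric acid cycle, read 0.85, 0.86, 1.25, 1.15 and 1.02 in virgin glands. It lay between 0.04 and 0.95 (median 0.36) in hyperplastic glands, between -0.67 and 0.04 (median -0.11) in Wnt-1 tumors and between -0.43 and 0.14 (median -0.25) in Neu tumors. All 35 tumors were below every virgin gland, while the highest hyperplastic gland lay within the virgin gland range. The tumor differences were -1.17 ± 0.09 (SE, adjusted p = 5.57e-12) and -1.24 ± 0.09 (adjusted p = 3.32e-09).

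Mrpl51, a large subunit protein, was lower by -0.86 ± 0.11 (SE, adjusted p = 0.000235) in hyperplastic glands, in 7 of 7, and by -1.22 ± 0.17 (adjusted p = 3.65e-07) in Wnt-1 tumors. Its values were -0.04 to 0.45 in virgin glands, -0.87 to -0.39 in hyperplastic glands and -1.75 to -0.44 in Wnt-1 tumors. Mrpl42 was at -0.93 in Wnt-1 and -0.78 in Neu tumors, both called. Among the rises, Mrps7 is described below and Mrpl19, over 3 clones, was at 0.39 ± 0.07 (adjusted p = 3.22e-05) in Wnt-1 tumors. Mrps11, of the small subunit, was called lower in hyperplastic than in virgin glands (-0.56) and higher in Wnt-1 tumors than in hyperplastic glands (0.54 ± 0.12, adjusted p = 2.86e-04), and its difference between Wnt-1 tumors and virgin glands was -0.02. Where a gene had several clones, they differed by over 0.5 for 9 of 24 genes between Wnt-1 tumors and virgin glands.

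The tumor types were next compared with each other. Of the 93 members, 31 were lower and 12 higher in Wnt-1 than in Neu tumors, where 23% of all genes were lower and 22.8% higher. The median member difference was -0.11, beside -0.03 over all genes. Complex I gave 13 lower genes of 22 (median -0.19) and complex V 4 of 7 (median -0.20). The ribosomal genes divided into 8 lower and 7 higher (median -0.02). With the permutation test 19 members were lower and 6 higher, beside 15.9% and 16.9% of all genes, and Cox18 was not called.

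The largest difference of any member belonged to Mrps7, a protein of the small ribosomal subunit. Virgin glands read -1.25, -1.20, -1.0, -1.12 and -1.07. Hyperplastic glands lay between -1.25 and -0.62 (median -1.02), Wnt-1 tumors between -1.79 and -0.70 (median -1.10) and Neu tumors between -0.38 and 0.55 (median 0.06). Virgin glands, hyperplastic glands and Wnt-1 tumors overlapped, and every Neu tumor was above all of them. Mrps7 was 2.22-fold lower in Wnt-1 than in Neu tumors (-1.15 ± 0.10, SE, adjusted p = 4.29e-12), and Neu tumors exceeded virgin glands by 1.18 ± 0.14 (adjusted p = 1.25e-06). Lung metastases differed in the same way, with -1.21 to -0.54 (median -1.02) in the 10 Wnt-1 metastases and 0.20, 0.04, -0.00, -0.33 and 0.59 in the 5 Neu metastases (-1.10 ± 0.13, adjusted p = 3.00e-05). Strain differs with transgene here, and its part was not tested.

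Other members differed by less, and of those named here only Ndufb8 and Cox19 also separated the tumor types completely. The share of all genes that did so was not counted. Ndufb8 was lower in Wnt-1 tumors by -0.46 ± 0.05 (SE, adjusted p = 8.06e-10) and Cox19 by -0.39 ± 0.04 (adjusted p = 1.17e-09), both in 23 of 23 tumors. Ndufv3 was lower by -0.52 ± 0.07 (adjusted p = 4.75e-08), in 22 of 23 tumors. Mrpl51 was lower by -0.61 ± 0.14 (adjusted p = 3.19e-04), with 11 of 23 below every Neu tumor. In the other direction, Cox7a2l was higher by 0.43 ± 0.07 (adjusted p = 8.24e-06) in 21 of 23 Wnt-1 tumors. The Wnt-1 tumor numbered 20 was the lowest for Cox7a2l at 0.00, where the median was 0.70. Sdhd was higher by 0.34 ± 0.07 (adjusted p = 1.76e-04), Ndufaf4, a complex I assembly factor, by 0.36 (adjusted p = 7.55e-04), and Sdhb by 0.28 ± 0.08 (adjusted p = 0.00274), the last of which was 0.16 (adjusted p = 0.186) after quantile normalization.

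Lung metastases were compared with primary tumors of the same transgene. Between Wnt-1 metastases and Wnt-1 tumors 2 members were lower and 1 higher, beside 2.58% and 2.88% of all genes, with a member median of -0.01. Complex I averaged -0.10 ± 0.13 (SD, n = 10) in the metastases and -0.12 ± 0.12 (n = 23) in the tumors, and 0 of its genes were called. The lower pair was Cox17, a copper chaperone for cytochrome oxidase (-0.31 ± 0.10, SE, adjusted p = 0.048), and Mrps30, a mitochondrial ribosomal protein (-0.30 ± 0.09, adjusted p = 0.0329). Cox17 missed the threshold after arrays were centred (adjusted p = 0.0574), and Mrps30 was at -0.15 (adjusted p = 0.24) without arrays of SD over 1.3, 1 of which is the metastasis numbered 52 at -0.72.

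Cox4i2, the isoform of cytochrome oxidase subunit 4 that is known from lung, was the member that rose in Wnt-1 metastases. It lay between -0.66 and 1.3 (median 0.30) in the 10 metastases and between -3.59 and -0.05 (median -0.60) in the 23 tumors. In 7 of 10 metastases it exceeded every Wnt-1 tumor, with a difference of 1.27 ± 0.31 (SE, adjusted p = 0.00852). Virgin glands read 0.05 to 0.60, above every Wnt-1 tumor (-1.20 ± 0.39, adjusted p = 0.0111) and above 11 of 12 Neu tumors (-1.46 ± 0.46, adjusted p = 0.012), the exception being the Neu tumor numbered 67 at 1.38. Hyperplastic glands were lower than virgin glands by -0.73 ± 0.18 (adjusted p = 0.00876), in 7 of 7, with an adjusted p of 0.402 in a fit over all groups.

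Lung markers moved with the metastases. The mean of 6 measured lung epithelium markers was 0.56 in Wnt-1 metastases (-0.68 to 1.62) against -2.96 in Wnt-1 tumors (-4.32 to -2.39), and 4 of the 6 were higher. Endothelial markers averaged -0.27 against -0.66, and 3 of 6 were higher. The part of lung tissue in the Cox4i2 difference was not tested.

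In Neu metastases the lung markers averaged -0.60 over the 5 samples (-1.17 to 0.85) against -2.61 in Neu tumors, and 3 of 6 were higher. Between these groups 0 members were called in either direction, beside 0.206% of all genes higher and 0.0129% lower. At an unadjusted p under 0.05, limma gave 1 member higher and 1 lower, beside 3.54% and 3.72% of all genes. The permutation test called 0, beside 0.425% of all genes higher and 0.116% lower. Cox4i2 in Neu metastases lay between -2.35 and -0.11 and differed from Neu tumors by 0.33 (adjusted p = 0.928). The change from tumor to metastasis was tested for a difference between the transgenes in 1 model with an interaction term, which called 0 members, beside 0.0901% of all genes higher and 0.0129% lower. At an unadjusted p under 0.05 it gave 7 members lower and 0 higher, beside 4.33% and 3.59% of all genes.

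**Figure D5:**
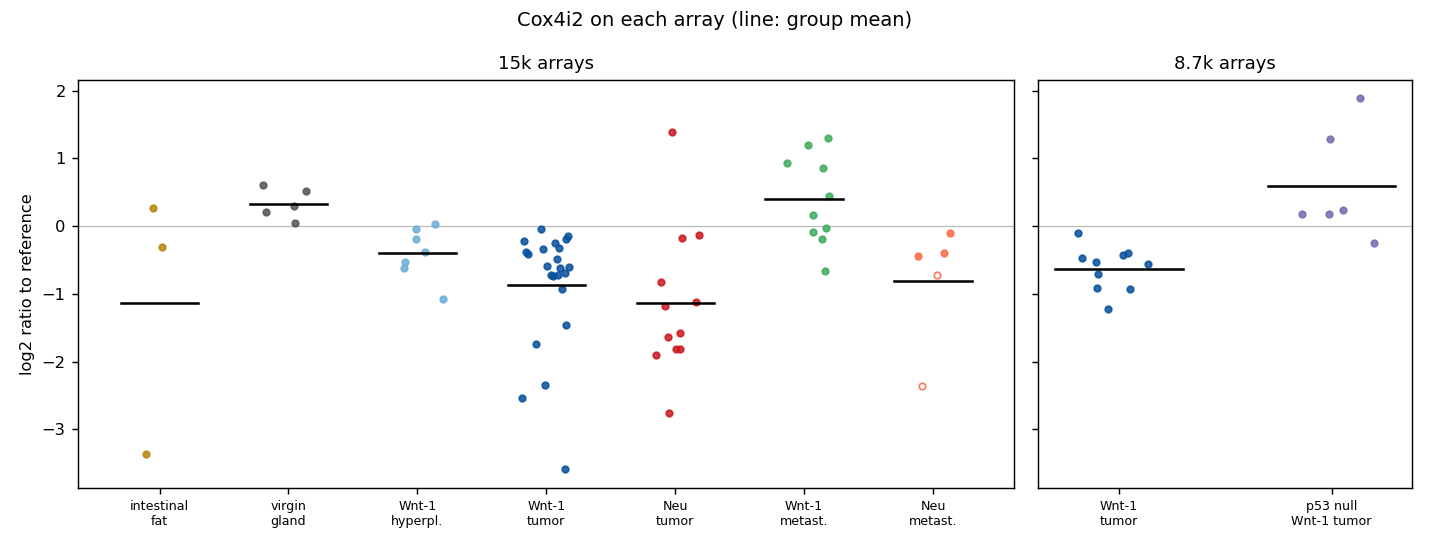
Log2 ratio of Cox4i2 to the common reference on each 15k array (left) and 8.7k array (right), by group, with a point per array and lines for group means. On the 15k arrays 7 of 10 Wnt-1 metastases exceed every Wnt-1 tumor, and on the 8.7k arrays 5 of 6 p53 null tumors exceed every other Wnt-1 tumor.

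Wnt-1 metastases were lower than Neu metastases for 21 members and higher for 2, beside 12.2% and 11.2% of all genes (member median -0.13, all genes -0.05). Complex I gave 8 of the lower calls, led by Ndufv3 at -0.75 ± 0.13 (SE, adjusted p = 0.000853), with all 10 Wnt-1 metastases below every Neu metastasis. Counts here depended on few Neu samples. Without the 2 tail-vein metastases 15 members were called, 4 of them in complex I, without the tail-vein metastasis numbered 56E alone the counts were 14 and 5, and the permutation test called 6 lower, beside 7.12% of all genes lower and 6.52% higher. The Neu metastasis numbered 61 was the highest of its group for complex I (0.58, with a mean of 0.15 ± 0.24, SD, n = 5), and without it 4 complex I genes were called. Cox4i2 was higher in Wnt-1 metastases by 1.2 ± 0.38 (adjusted p = 0.033), which became 0.71 (adjusted p = 0.226) without the tail-vein samples and missed the threshold without either of them alone (adjusted p = 0.0588 and 0.0927).

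On the 8.7k arrays, p53 null Wnt-1 tumors were compared with Wnt-1 tumors, each against the same reference. Of the 73 members 1 was higher and 0 lower, beside 0.192% and 0.314% of all genes. At an unadjusted p under 0.05 limma gave 11 higher and 2 lower, beside 6.53% and 9.15% of all genes. The permutation test called 2 higher and 0 lower, beside 0.664% and 0.891%. Complex I averaged -0.11 ± 0.26 (SD, n = 6) and -0.17 ± 0.11 (n = 10). The member called was again Cox4i2, at -0.24, 0.17, 0.19, 0.23, 1.28 and 1.89 in the p53 null tumors and between -1.23 and -0.10 in the others. In 5 of 6 p53 null tumors it exceeded every other tumor, with a difference of 1.21 ± 0.26 (SE, adjusted p = 0.0482). Centring the arrays moved that adjusted p to 0.0527. The 4 lung epithelium markers on these arrays averaged -4.17 in p53 null tumors and -3.89 in the other tumors. Against the other tumors, the endothelial markers Emcn, Esam, Flt1 and Cdh5 were at 0.67, 0.47, 0.22 and 0.19, and none was called. The part of these cells in the Cox4i2 difference was not tested.

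Genes of neighboring mitochondrial pathways were counted in the same comparisons. Of 16 listed genes of the citric acid cycle and pyruvate dehydrogenase, which supply NADH and succinate to the chain, 7 were measured and 7 of 7 were lower than in virgin glands in hyperplastic glands (median -1.36), in Wnt-1 tumors (median -1.61) and in Neu tumors (median -1.50). All 7 were higher in fat than in primary tumors (median 1.31). Citrate synthase, Cs, was at -1.84 ± 0.30 (SE, adjusted p = 0.000814) in hyperplastic glands and -1.61 ± 0.24 (adjusted p = 1.51e-06) in Wnt-1 tumors. Dlat, the acetyltransferase of pyruvate dehydrogenase, was at -1.47 in hyperplastic glands, -2.11 in Wnt-1 tumors and -1.54 in Neu tumors.

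Among 6 of 14 listed carriers and electron donors, 5 were lower in Wnt-1 tumors, led by Etfb, a subunit of the electron transfer flavoprotein (-2.31 ± 0.11, SE). Slc25a1, the mitochondrial citrate carrier, was the exception, at -0.02 in Wnt-1 tumors and 1.05 ± 0.11 in Neu tumors, the latter called. Of 15 listed regulators of mitochondrial genes and mitochondrial DNA factors, the latter including Ssbp1, 5 were measured. Of these 5, 4 were higher in Wnt-1 tumors than in virgin glands, namely Gabpb1 (0.53), Yy1 (0.48), Ssbp1 (0.39) and Pprc1 (0.34), while Gabpa was at 0.02. In Neu tumors 3 of the 5 were higher. Import factors and chaperones (9 of 21 measured) gave 2 higher and 3 lower in Wnt-1 tumors and 5 lower in Neu tumors, and translation factors (5 of 13 measured) gave 2 lower in either tumor type and 1 higher in Neu tumors.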

How the data were processed

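RNA was extracted with Trizol, labeled directly and hybridized to spotted cDNA arrays, which were scanned on a GenePix scanner and read with ArraySuite on IPLab. Per the labels, the deposited values are normalized log2 ratios of sample (Cy5) to common reference (Cy3). The authors left out genes of low mean spot quality in their own comparisons, and no such cut was applied here. The base was checked on 3031 ratios under 0.01, 100% of which were whole multiples of 1e-04 once 2 was raised to the deposited value (tolerance 0.02). How precise the group values are depends on how many arrays a group holds.

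Clones with 1 symbol were averaged per gene, and 13 member clones on the 15k arrays and 10 on the 8.7k arrays that carried several symbols were left out. Groups of samples were compared with limma 3.58.1 in R 4.3.3, in a fit of the groups compared alone over all genes with a value in at least 50% and at least 2 arrays of each group, with Benjamini-Hochberg adjusted p under 0.05 over all genes. The scripts were tested on simulated data. The 5 Neu metastases were treated as 1 group. The text names the 6 called members of largest rise and of largest fall in a comparison, the called member of smallest adjusted p in each class, both complex II genes and the tissue isoforms, choosing among them. Ndufa8, Ndufa12, Ndufc2 and Atp5g3 fall outside this rule and were added after their values were seen. The members and lists were chosen with earlier results of these data known.

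A permutation test after the study's methods (here 100 regroupings pooled over genes, P under 0.001, where the study drew more and gave a P per gene), centring, quantile normalization, 1 fit over all groups, 1 fit per clone, extreme ratios set missing and arrays left out were alternatives. In 7 Wnt-1 and 3 Neu pairs, tumors and metastases of the same number had correlations of their deviations between -0.063 and 0.304 and between -0.012 and 0.102, so that the numbers were not used to pair samples. A further 3 tumors on the 8.7k arrays are not analysed here, and tumors were not split by other mutations.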

Additional observations from a re-analysis of the deposited data

Results flagged for a closer look

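In 210 groups of 4 to 10 arrays (a named gene or a class average in a sample group), 23 held an array that stood apart by Dixon's test at its 95% critical value, where chance alone gives about 1 in 20. The cause was not tested for any of them.

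The hyperplastic gland numbered 5 was the highest of its group for Cox18 (1.22), Mrpl15 (0.76), Ndufa1 (0.60), Uqcrc2 (0.17, the mean of clones that disagree), the large ribosomal subunit average (0.26) and the small subunit average (0.18). The Neu metastasis numbered 61 was the highest of its group for Cox6b1 (0.96), Ndufb5 (0.88), Ndufc2 (0.81), Ndufv3 (0.71), Cox19 (0.57), the complex I average (0.58) and the complex III average (0.37). Both arrays thus recur across classes of the respiratory chain.

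The Wnt-1 metastasis numbered 19 was high for Mrps7 (-0.54) and Sdhb (-0.26), that numbered 52 low for Mrps30 (-0.72), and that numbered 50 low for the large subunit average (-0.24). These 3 arrays are those of the Wnt-1 metastases with an SD over 1.3 across all clones. Among Neu metastases, the tail-vein sample numbered 56E was low for Cox4i2 (-2.35) and the sample numbered 56 high for Ndufb9 (0.34). The virgin gland numbered 27 was low for Atp5g3 (-0.30) and that numbered 13 low for Ndufb9 (0.21). On the 8.7k arrays Cox6b1 was low in the Wnt-1 tumor numbered 95 (-0.78) and stood apart in the p53 null tumor numbered 87 (0.22).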

How the results depend on the processing

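Of the member counts under the alternatives, 137 were within 1.5 times the reported count and 25 were not, as were 89 and 8 counts of complex I genes. Medians moved by less than the spread between arrays in 150 cases and by more in 4. Among results for single genes, 2250 kept their direction and side of the threshold, 140 lost the call, 20 gained it and 4 reversed. The cause of these shifts was not tested.

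The permutation test called 25 members (8 of complex I lower) between Wnt-1 and Neu tumors, 16 (9) between hyperplastic and virgin glands, 6 (3) between the metastases, 1 between Wnt-1 metastases and tumors, 3 between fat and virgin glands, 23 (10 of complex I higher) between fat and tumors, and 2 between p53 null and other Wnt-1 tumors. Between Wnt-1 metastases and tumors, 1 member was called without arrays of SD over 1.3, 0 in same-numbered samples with the replicate block and 1 in those samples without it. For p53 null tumors 0 members were called after centring and 0 with a fit per clone. Between metastases, centring left 5 complex I genes lower, leaving out the tail-vein samples left 15 members and 4 complex I genes, and leaving out single arrays gave 14 to 22 members and 4 to 8 complex I genes. Between fat and virgin glands the count was 10 after quantile normalization, 24 in a fit over all groups, 9 with extreme ratios missing, 8 without arrays of SD over 1.3 and 0 to 8 without single arrays. Apart from the permutation test, shares of all genes called are not given for counts under the alternatives, here or above. For that test they are not given between Wnt-1 metastases and tumors.

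The median between Wnt-1 tumors and virgin glands was -0.48 with a fit per clone. That between fat and virgin glands ran from -0.36 to -0.15 without single arrays, and that between fat and tumors from 0.075 to 0.29, and it was 0.25 without arrays of SD over 1.3. In fat against tumors, Mrpl3 reversed to 0.24 with extreme ratios missing and to 0.17 without arrays of SD over 1.3, and ran from -3.36 to 0.24 without single fat samples, since the sample numbered 44 read -7.04. Mrpl45 ran from -1.93 to 0.057.

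Quantile normalization moved the all-gene median by 0.13 between fat and virgin glands, where members split 1 higher and 9 lower, or 1 and 4 after centring. All genes between Neu metastases and tumors split 16 higher and 1 lower, or 14 and 4 after quantile normalization, those for p53 null tumors 11 and 18, or 8 and 5 after centring, and members between Wnt-1 metastases and tumors 1 and 2, or 1 and 1 under both.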

Other observations

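Of 6 listed genes of thermogenic fat, Ucp1 and Cidea were measured, and they moved unequally. Cidea was lower than in virgin glands by -3.23 in hyperplastic glands, -5.77 in Wnt-1 tumors and -5.57 in Neu tumors on the log2 scale, all called by limma. Ucp1 was at -0.43 and -0.77 in hyperplastic glands and Wnt-1 tumors, both called, and at -0.18 in Neu tumors (adjusted p = 0.29).

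The 5 measured epithelial markers went both ways. Against virgin glands, Cdh1 was higher in hyperplastic glands (1.85), Wnt-1 tumors (1.95) and Neu tumors (1.34), and Cldn7 was higher in Wnt-1 tumors (1.17) and Neu tumors (1.39). Cldn4 was lower in all 3 (-0.86, -1.68 and -1.41). Krt19 was higher in hyperplastic glands (0.91) and Wnt-1 tumors (1.64) and lower in Neu tumors (-4.40), and Krt14 was not called in any of the 3. The part of these cells in the member differences was not tested.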
